A study of Mus musculus with 6 samples.

Results

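The genes described here encode the chaperones, folding enzymes, stress sensors, degradation factors and translocation channel of the endoplasmic reticulum, the entry compartment of the secretory pathway. They were chosen by name, with earlier results of these data known. The list holds 46 symbols, which stand for 45 genes because Ero1l and Ero1a are the same gene. Of these, 44 had an array probe set annotated to a single gene, out of 12393 such genes on the array, and each was represented by its brightest probe set. The exception was Sec61g, whose probe set carries several genes. Ern1 lay below the intensity filter (mean intensity of 114 across the arrays), which leaves 43 members among the 7436 genes tested.

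Secreted and membrane proteins enter the endoplasmic reticulum through the Sec61 channel and fold there with the help of Hsp70 and Hsp90 family chaperones, sugar-binding chaperones and enzymes that form and rearrange disulfide bonds. Proteins that fail to fold are pulled back into the cytosol and destroyed, a route called ER-associated degradation. When unfolded proteins accumulate, the sensors PERK, IRE1 and ATF6 slow protein synthesis and raise transcription of the folding machinery, the unfolded protein response. Fat cells secrete large amounts of adiponectin, whose release depends on the disulfide machinery of this compartment.

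White adipose tissue was taken at an age of 8 weeks, after 4 days at 4 °C, from mice on a mixed background of C57BL6 and 129. In every mouse the Yy1 gene was floxed, that is, flanked by sites at which Cre recombinase cuts. The 3 control samples had the floxed alleles alone, and the 3 YY1aKO samples also carried Cre driven by the Adiponectin promoter, which is active in fat cells. No group with Cre and intact Yy1 was analysed here, so effects of Cre and of Yy1 loss cannot be told apart. Each sample was hybridised to 1 single-colour Affymetrix array. The labels call the depot epididymal or visceral in some fields and subcutaneous in others, the series title places the Yy1 loss in brown fat, and whether each sample is a different animal is not stated. The p-values then measure only how these samples vary, which may be technical. The question posed is what loss of this zinc-finger transcription factor does to gene expression in fat of cold-exposed mice.

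The intensity of Yy1 was 1785, 1846 and 1596 in controls 1, 2 and 3 and 373, 323 and 315 in YY1aKO 1, 2 and 3. It fell by 2.37 ± 0.11 (SE) on the log2 scale (limma, adjusted p = 0.00209), and the groups did not overlap. Control 2 stood apart from the other arrays. Its correlation with them over all tested genes was 0.812 to 0.890, against 0.902 to 0.990 among the rest. Of 26 listed markers of epididymal epithelium 10 were found, and without Mfge8, which fat also expresses, the summed intensity of the other 9 was 109619 in control 2 and 625 to 1577 on the other arrays. Lcn8, a lipocalin of the epididymis, read 28166 there and 49.2 to 59.9 elsewhere. Summed markers of fat cells were 67306 in control 2, 103370 and 109969 in the other controls and 86155 to 92322 in YY1aKO. Counts and differences are therefore given with all 6 arrays and again without control 2. The 2 comparisons share their other control samples and all YY1aKO samples. The part of the epididymal signal in the members' values was not tested. In tissue RNA, fewer cells of a type and less RNA per cell cannot be told apart.

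With control 2 left out, the secretory machinery read higher in YY1aKO across most of its branches, led by the partners of the chaperone BiP. This comparison was set up knowing that the group reads high in control 2. A larger difference without that array was therefore built in and is no independent evidence of a rise. Of the 43 tested members, 28 rose (65.1%) and 0 fell at an adjusted p under 0.05, where 25.5% of all tested genes rose and 19.6% fell. The lowest YY1aKO value lay above both remaining controls for 33 of 43 members, against 37.8% of all tested genes. On the probe sets used, the highest lay below both for 2 members, Sec62 and Sel1l, against 2333 of 7436 tested genes. The median difference, YY1aKO minus control, was 0.52 on the log2 scale for the members and 0.03 for all tested genes. With all 6 arrays, 2 members rose (4.65%), Ero1a and Derl1, and 0 fell, where 12.9% of all tested genes rose and 7.80% fell. At an unadjusted p under 0.05, 5 members were higher and 0 lower with 6 arrays, and 31 and 0 without control 2. With 6 arrays the 2 groups did not overlap, with YY1aKO higher, for 6 of 43 members, against 27.9% of all tested genes. These were Ero1a, Derl1, Atf6, Xbp1, Edem1 and Sec63. YY1aKO was lower without overlap for 1 member, Sec62, against 1456 of 7436 tested genes. The median difference was then 0.20 for the members and 0.06 for all tested genes.

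The arrays differed within each genotype in the same direction for nearly the whole group. Control 2 lay above both other controls for 37 of 43 members (86.0%), while this was so for 40.2% of all tested genes, and for 28 members it was the highest of the 6 arrays. Its median excess over the mean of controls 1 and 3 was 0.94 on the log2 scale for the members and -0.05 for all tested genes. The high reading of the group in control 2 was known beforehand, so these values describe that array and are no independent finding. YY1aKO 2 was the lowest of the YY1aKO arrays for 40 of 43 members (93.0%, against 30.5% of all tested genes). Relative to controls 1 and 3, the median member was 0.64, 0.33 and 0.67 higher on YY1aKO 1, 2 and 3. The 8 markers found of the 12 listed for plasma and B cells, of which plasma cells are rich in this machinery, summed to 16003 on YY1aKO 2 and to 3784 on control 2, with 5511 to 7593 on the other arrays. That order rests on Ighm, which made up 15451 of the sum on YY1aKO 2. The other 7 markers summed to 552 there, to 2304 on control 2, of which Sdc1 gave 2089, and to 565 to 1169.9 on the other arrays. The part of such cells in the members' values was not tested.

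**Figure D1:**
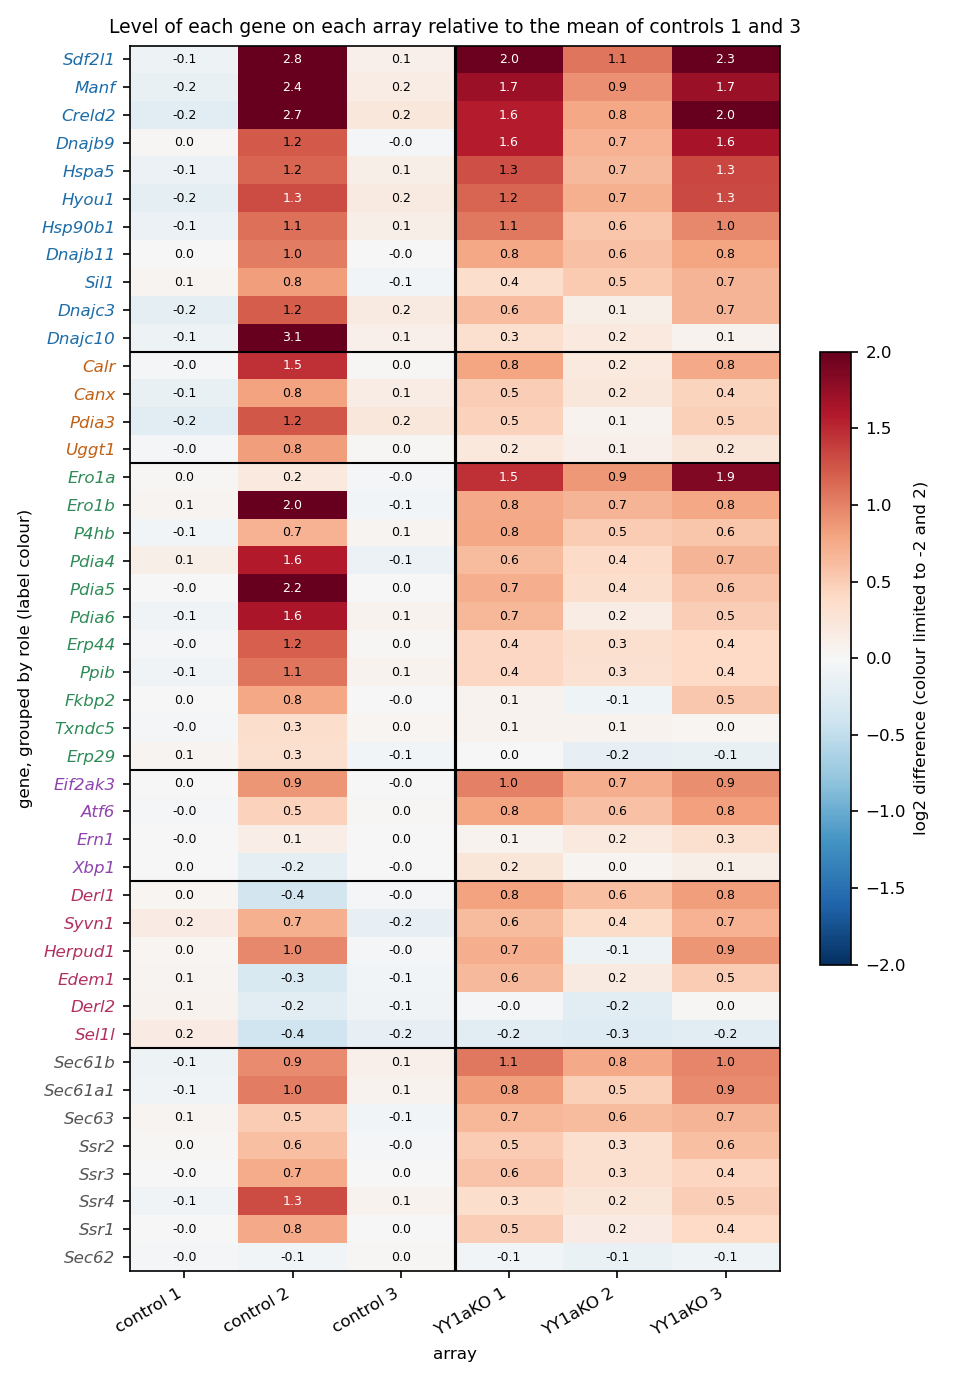
Log2 level of each of the 44 genes (rows, grouped by role) on each of the 6 arrays (columns) relative to the mean of controls 1 and 3, with the value printed in each cell. The column of control 2 is red for most chaperones and isomerases and blue for Xbp1, Derl1, Edem1, Derl2, Sel1l and Sec62, and the 3 YY1aKO columns are red for most rows and palest for YY1aKO 2.

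The BiP system comprised 11 tested genes. Of these, 9 rose without control 2 (81.8%, beside 25.5% of all tested genes) and 0 with all 6 arrays (beside 12.9%). The median difference of this role was 1.07 without control 2 and 0.56 with it, the highest of the roles without control 2. Hspa5 encodes BiP itself, the Hsp70 of the compartment. Its intensity was 4697, 11457 and 5574 in controls 1, 2 and 3 and 12464, 8052 and 12984 in YY1aKO 1, 2 and 3. Control 2 lay within the YY1aKO range and the other controls below it. The difference was 1.09 ± 0.22 (SE) on the log2 scale without control 2, or 2.13-fold (limma, adjusted p = 0.0118), and 0.71 ± 0.38 with 6 arrays (adjusted p = 0.230). The call was lost when control 1 was also left out (adjusted p = 0.0544). A second, dimmer probe set of Hspa5 gave 1.44 and 0.95.

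Hspa5 is the classic gene with an ER stress response element, in which CCAAT and CCACG are separated by 9 bases and which ATF6 and XBP1 are known to use. The promoter is shown as the reference case for this element. It covers the 250 bases before the RefSeq start on the plus strand of GRCm38.p6, chr2:34771840-34772089. The exact match to these letters, at positions -65 to -47, is in capitals, and inexact matches were not searched for.
Hspa5: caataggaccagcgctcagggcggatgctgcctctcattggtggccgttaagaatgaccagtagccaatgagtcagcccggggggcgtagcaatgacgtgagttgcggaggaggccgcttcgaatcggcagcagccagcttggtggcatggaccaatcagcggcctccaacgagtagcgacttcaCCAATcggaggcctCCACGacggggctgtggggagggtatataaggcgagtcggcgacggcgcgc

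Among the partners of BiP, Sdf2l1, which forms a complex with BiP and its J-domain partner Dnajb11, had the largest difference of all members without control 2. It read 237, 1799 and 269.6 in the controls and 979, 530.0 and 1258 in YY1aKO, so that control 2 was the highest array and YY1aKO 2 the lowest of its group. Sdf2l1 rose 3.43-fold without control 2 (1.78 ± 0.35, adjusted p = 0.0103) and did not pass with 6 arrays (0.84 ± 0.84, adjusted p = 0.511). Manf, a small secreted factor induced by ER stress, read 1163, 6872 and 1433 in the controls and 4220.4, 2443 and 4267 in YY1aKO. Its difference was 1.45 ± 0.27 without control 2 (adjusted p = 0.00830) and 0.65 ± 0.70 with it (adjusted p = 0.546). Creld2, another stress-induced resident of the compartment, read 297, 2211 and 403 in the controls against 1026, 589 and 1391 in YY1aKO. The pattern matched that of Manf, with control 2 above every other array. Creld2 rose by 1.45 ± 0.36 (adjusted p = 0.0216), a call lost without control 1 as well (0.0954) or without YY1aKO 1 (0.0650). With 6 arrays its difference was 0.56 ± 0.80 (adjusted p = 0.657).

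Dnajb9, a J-domain partner of BiP that also serves degradation, read 1111, 2557 and 1084 in the controls and 3261, 1785 and 3427 in YY1aKO. It rose by 1.31 ± 0.29 without control 2 (adjusted p = 0.0146), and the adjusted p was 0.0516 and 0.0589 when control 1 or 3 was left out too. With 6 arrays its difference was 0.90 ± 0.42 (adjusted p = 0.181), the highest in this role. Hyou1, a large Hsp70-like protein that helps BiP release its nucleotide, read 278, 779.6 and 356 in the controls against 705, 517 and 786 in YY1aKO. It rose by 1.07 ± 0.20 (adjusted p = 0.00947), against 0.63 ± 0.40 with 6 arrays (adjusted p = 0.306). Hsp90b1 (the Hsp90 of the compartment), Dnajb11 and the nucleotide exchange factor Sil1 also rose without control 2, by 0.85, 0.71 and 0.52, against 0.49, 0.37 and 0.24 with 6 arrays, where none of the 3 passed. The call of Sil1 was lost without control 3 (0.0710), while those of Hsp90b1 and Dnajb11 passed in each setting run without control 2.

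The remaining 2 genes of this role did not pass in either comparison with the brightest probe set. Dnajc3, a J-domain protein that restrains PERK, differed by 0.47 ± 0.20 without control 2 (adjusted p = 0.107) and by 0.07 ± 0.38 with it. The mean of its probe sets passed without control 2 (0.72, adjusted p = 0.00812). Dnajc10, which couples a J domain to disulfide reduction, was picked out after its values were seen because control 2 departed furthest there. It read 756, 7068 and 877 in the controls and 1019.8, 933 and 857 in YY1aKO. Control 2 was 8.68 times the geometric mean of the other controls, and on this probe set the YY1aKO arrays lay close to controls 1 and 3. The limma estimates were 0.20 ± 0.11 without control 2 (adjusted p = 0.195) and -0.84 ± 0.86 with it (adjusted p = 0.520). The other 2 probe sets of Dnajc10 also read high in control 2 and were 0.51 and 0.61 higher in YY1aKO without it, and the mean of its probe sets passed there (0.44, adjusted p = 0.0145).

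**Figure D2:**
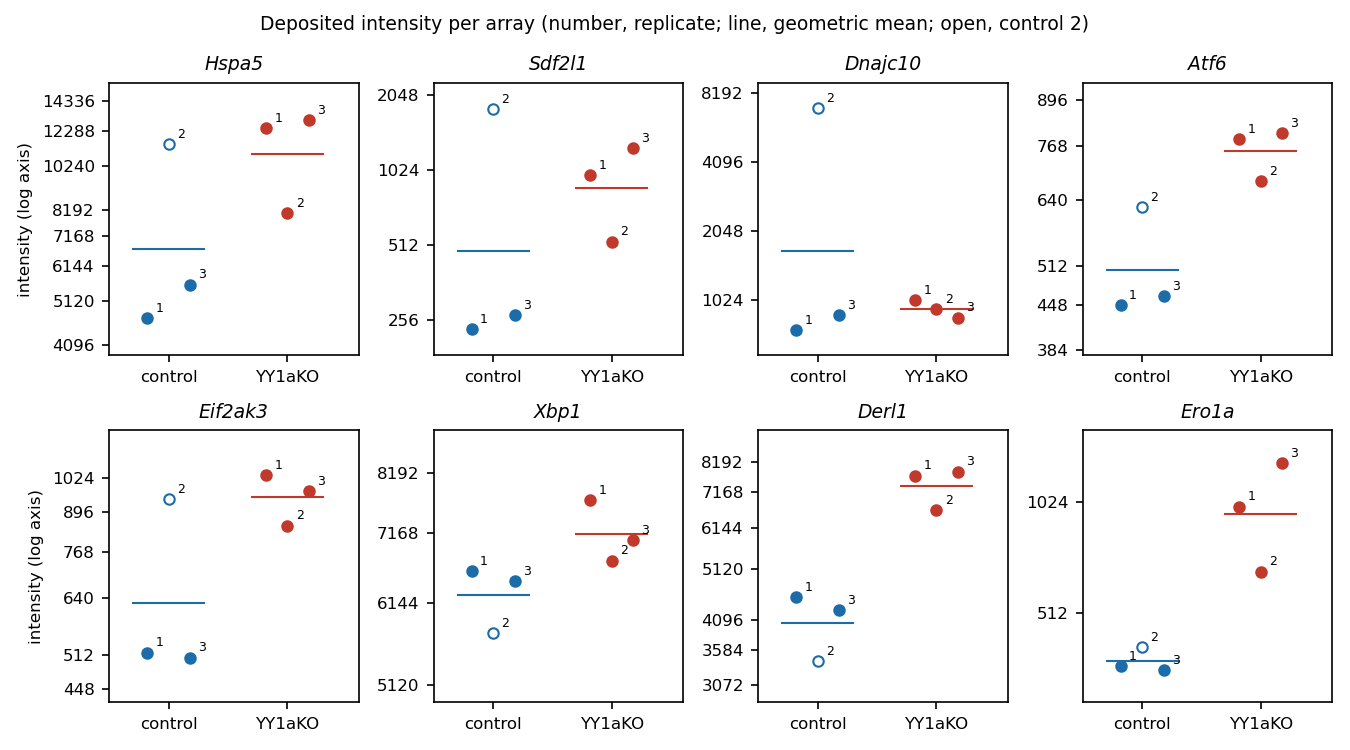
Deposited intensity (vertical log axis) of 8 members on each array, controls in blue with control 2 open and YY1aKO in red, numbered by replicate, with a line at the geometric mean of each group. Control 2 lies above the YY1aKO arrays for Sdf2l1 and Dnajc10, within their range for Hspa5 and Eif2ak3, and below all of them for Atf6, Xbp1, Derl1 and Ero1a.

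The sugar-binding branch did not pass for any of its 4 genes in either comparison, with a median difference of 0.36 without control 2 and 0.00 with it. Calreticulin and calnexin hold newly made glycoproteins in the compartment, Pdia3 (ERp57) works with them on disulfide bonds, and Uggt1 sends misfolded glycoproteins back for another cycle. Calr read 3717, 10420.0 and 3843 in the controls and 6526, 4324 and 6360.3 in YY1aKO, and its difference without control 2 was 0.58 ± 0.19 (adjusted p = 0.0509). Canx read 2890.2, 5593 and 3553 in the controls against 4522, 3767 and 4366 in YY1aKO, with a difference of 0.39 ± 0.13 (adjusted p = 0.0514). For both genes the YY1aKO arrays lay above controls 1 and 3 and below control 2, and the adjusted p lay so near the threshold that each passed in several other settings. Pdia3 and Uggt1 differed by 0.33 ± 0.19 (adjusted p = 0.187) and 0.18 ± 0.08 (adjusted p = 0.120). With 6 arrays the 4 estimates ran from -0.10 to 0.12.

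Among the 11 disulfide isomerases, oxidases and prolyl isomerases, 7 rose without control 2 (63.6%) and 1 rose with all 6 arrays (9.09%). Of all tested genes, 25.5% and 12.9% rose in these comparisons. The median difference of this role was 0.44 without control 2 and -0.02 with it. The oxidase Ero1a, which feeds oxidising power to protein disulfide isomerase and is known to favour the release of adiponectin, passed in both comparisons. It read 367, 414 and 358 in the controls and 994, 663 and 1308 in YY1aKO, so that the groups did not overlap and control 2 was close to its fellows. The difference was 1.33 ± 0.25 with 6 arrays (2.51-fold, adjusted p = 0.0204) and 1.39 ± 0.27 without control 2 (adjusted p = 0.0100). With 6 arrays the call was lost without control 3 (0.0759) and without YY1aKO 1, 2 or 3 (0.0786, 0.0516 and 0.0680). Its relative Ero1b, annotated in the member list as Ero1lb, read 227, 879 and 211 in the controls against 371, 352 and 373 in YY1aKO. Here control 2 was the highest array by far, and the YY1aKO arrays lay close together above the other controls. Ero1b rose by 0.74 ± 0.08 without control 2 (adjusted p = 0.00201) and differed by 0.07 ± 0.56 with it (adjusted p = 0.945).

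P4hb, the founding protein disulfide isomerase, read 3955, 6668 and 4287 in the controls and 7039, 5870.4 and 6044 in YY1aKO. It rose by 0.61 ± 0.11 without control 2 (adjusted p = 0.00731), with control 2 inside the YY1aKO range, and differed by 0.38 ± 0.22 with 6 arrays (adjusted p = 0.256). The isomerase Pdia4 read 736, 2037 and 631 in the controls against 1059, 889.6 and 1097 in YY1aKO, and rose by 0.57 ± 0.13 (adjusted p = 0.0151), against 0.04 ± 0.45 with 6 arrays (adjusted p = 0.960). This call was lost without control 3 (0.0717) and with the mean of its probe sets (0.122). The isomerase Pdia5 read 239.7, 1093 and 245 in the controls against 403, 309.5 and 359 in YY1aKO, with control 2 at 4.51 times the geometric mean of the other controls. It rose by 0.55 ± 0.12 (adjusted p = 0.0157) and had the opposite sign with 6 arrays (-0.17 ± 0.61). The Pdia5 call was lost without control 1 (0.0595) or control 3 (0.0554).

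Erp44, which retains adiponectin and the Ero1 oxidases in the early secretory pathway, read 889, 2068 and 921 in the controls and 1204, 1126 and 1187 in YY1aKO. It rose by 0.37 ± 0.08 without control 2 (adjusted p = 0.0123, 0.0503 without control 1 too), and its sign turned with 6 arrays (-0.02 ± 0.34). The prolyl isomerase Ppib rose by 0.37 ± 0.09 (adjusted p = 0.0180), a call lost without control 1, YY1aKO 1 or YY1aKO 3 (0.0789, 0.0533 and 0.0558). With 6 arrays Ppib differed by 0.01 ± 0.31. The 4 genes that did not pass were the isomerases Pdia6 and Txndc5, the PDI-like Erp29 and the prolyl isomerase Fkbp2. Their differences without control 2 ran from -0.10 for Erp29 to 0.44 for Pdia6, whose adjusted p was 0.0676, and with 6 arrays from -0.21 for Erp29 to -0.06 for Txndc5.

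The sensors were read at the transcript level, which does not report their activation. Xbp1 is grouped with them, and 3 genes of this role were tested, Eif2ak3, Atf6 and Xbp1. Of these, 2 rose without control 2 and 0 with all 6 arrays, beside 25.5% and 12.9% of all tested genes. PERK (Eif2ak3), a kinase that slows translation, read 517, 942 and 507 in the controls and 1036, 850.3 and 972 in YY1aKO. It rose 1.85-fold without control 2 (0.89 ± 0.11, adjusted p = 0.00237) and differed by 0.60 ± 0.26 with 6 arrays (adjusted p = 0.156). Control 2 lay among the YY1aKO values. Atf6, a membrane-bound transcription factor that is released by cleavage, read 448, 624 and 461 in the controls against 785, 682 and 803 in YY1aKO. Its groups did not overlap even with control 2, yet the difference of 0.58 ± 0.16 just missed the threshold (adjusted p = 0.0527). Without control 2 it rose by 0.73 ± 0.10 (adjusted p = 0.00333).

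Ern1 encodes IRE1, which splices the Xbp1 transcript. It lay below the intensity filter, at 65.9, 72.5 and 66.7 in the controls and 69.4, 76.0 and 82.3 in YY1aKO. In the fit with no filter its difference was 0.19 ± 0.10 without control 2 (adjusted p = 0.210) and 0.15 ± 0.10 with it (adjusted p = 0.388). Xbp1, the transcription factor made from the spliced transcript, read 6591, 5745 and 6449.9 in the controls against 7725, 6748 and 7057 in YY1aKO. Every YY1aKO value lay above every control, but by little. The difference was 0.20 ± 0.11 with 6 arrays (adjusted p = 0.228) and 0.14 ± 0.09 without control 2 (adjusted p = 0.250). Control 2 was the lowest array for Xbp1 rather than the highest. All 4 probe sets of Xbp1 gave positive differences, from 0.09 to 0.30 with 6 arrays, and the deposited annotation does not tell spliced from unspliced transcripts.

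Of the 6 genes of ER-associated degradation, 3 rose without control 2 and 1 with all 6 arrays, with median differences of 0.47 and 0.26. Control 2 departed in both directions here. It lay below both other controls for 4 genes and above them for the other 2, Herpud1 and Syvn1. Derl1, part of the channel that carries misfolded proteins out, read 4522, 3418 and 4277 in the controls and 7719, 6641 and 7857 in YY1aKO. The groups did not overlap, with control 2 the lowest array. Derl1 rose by 0.87 ± 0.14 with 6 arrays (adjusted p = 0.0150) and by 0.75 ± 0.10 without control 2 (adjusted p = 0.00350). Its other 3 probe sets gave 1.18 to 1.41 with 6 arrays. The 6-array call was lost without control 3 (0.0534) and without YY1aKO 1, 2 or 3 (0.0655, 0.0626 and 0.0794). Its homologue Derl2 differed by -0.0025 ± 0.12 and -0.08 ± 0.11 with and without control 2, while its second, dimmer probe set gave -0.16 and 0.37.

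Edem1, a lectin that marks glycoproteins for disposal, read 1313, 1022 and 1214 in the controls and 1972, 1437 and 1802 in YY1aKO, with no overlap. Its difference was 0.55 ± 0.16 with 6 arrays (adjusted p = 0.0630) and 0.45 ± 0.15 without control 2 (adjusted p = 0.0498). The latter call was lost when any further array but YY1aKO 2 was left out (adjusted p of 0.0995 to 0.173), and with the mean of its probe sets (0.27, adjusted p = 0.164). Syvn1, the ubiquitin ligase Hrd1, read 356, 520.5 and 284 in the controls against 495, 412 and 515 in YY1aKO. It rose by 0.57 ± 0.14 without control 2 (adjusted p = 0.0225), a call lost without control 3, YY1aKO 1 or YY1aKO 3 (0.100, 0.0667 and 0.0648), and differed by 0.33 ± 0.24 with 6 arrays. Sel1l, the partner that stabilises Hrd1, did not pass. Its difference was -0.24 ± 0.11 without control 2 (adjusted p = 0.136) and -0.10 ± 0.16 with it, and it passed as lower without controls 2 and 3 (0.0337). Its probe sets disagreed: a second one of nearly equal brightness was 0.48 higher in YY1aKO without control 2 and 0.51 higher with 6 arrays, so no direction is given for Sel1l. Herpud1, which recruits Hrd1, differed by 0.50 ± 0.29 without control 2 (adjusted p = 0.201) and by 0.18 ± 0.37 with it, with YY1aKO 2 at 952 below controls 1 and 3, and YY1aKO 1 and 3 at 1695 and 1896.

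Of the 8 tested genes of the translocon, 7 rose without control 2 (87.5%) and 0 with all 6 arrays. Of all tested genes, 25.5% and 12.9% rose in these comparisons. The median differences of the 8 genes were 0.46 and 0.24. Sec61b, the small beta subunit of the channel, read 3052, 6336 and 3549 in the controls and 6839.8, 5558 and 6500.0 in YY1aKO. It rose by 0.93 ± 0.12 without control 2 (adjusted p = 0.00317) and differed by 0.62 ± 0.28 with it (adjusted p = 0.174). Sec61a1, which forms the pore, read 2307, 4905 and 2531 in the controls against 4331, 3369 and 4653 in YY1aKO. Control 2 was the highest array for Sec61a1 and lay inside the YY1aKO range for Sec61b. Sec61a1 rose by 0.76 ± 0.15 without it (adjusted p = 0.0111) and differed by 0.41 ± 0.31 with it (adjusted p = 0.382). Sec63, a J-domain protein that brings BiP to the channel, read 517, 713 and 482 in the controls against 787, 771 and 797 in YY1aKO. All of its YY1aKO values lay above all controls, and it rose by 0.65 ± 0.08 without control 2 (adjusted p = 0.00239), against 0.48 ± 0.16 with it (adjusted p = 0.0883). Its partner Sec62 differed by -0.09 ± 0.08 without control 2 (adjusted p = 0.345) and by -0.07 ± 0.08 with it. On the probe set used, every YY1aKO value of Sec62 lay below every control, but by little.

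The 4 subunits of the translocon-associated protein complex, which assists the entry of some proteins, rose by 0.36 to 0.48 without control 2. Ssr2 read 888, 1334 and 864 in the controls and 1247, 1096 and 1327 in YY1aKO, and rose by 0.48 ± 0.10 without control 2 (adjusted p = 0.0142, 0.0591 without control 3 too). Ssr3 read 2708, 4559 and 2744 in the controls against 4067, 3416 and 3685 in YY1aKO, and rose by 0.45 ± 0.10 (adjusted p = 0.0147, 0.0547 and 0.0527 without control 1 or 3). In both, control 2 was the highest array and YY1aKO 2 the lowest of its group, and with 6 arrays the differences were 0.27 ± 0.20 and 0.20 ± 0.23. Ssr4 read 2476, 6403 and 2721 in the controls against 3304, 3066 and 3641 in YY1aKO, with a rise of 0.36 ± 0.10 (adjusted p = 0.0341) and the opposite sign with 6 arrays (-0.08 ± 0.37). The calls of Ssr4 and Ssr1 (a rise of 0.36, adjusted p = 0.0479) were lost when any further array but YY1aKO 2 was left out. Those adjusted p values were 0.0600 to 0.138 for Ssr4 and 0.113 to 0.134 for Ssr1, whose difference with 6 arrays was 0.10 ± 0.24. With all 5 arrays kept, both calls were also lost with the mean of the probe sets, at 0.13 for Ssr4 (adjusted p = 0.216) and 0.20 for Ssr1 (0.237). They were lost too with no filter (0.0563 and 0.0764) and with the replicate block (0.0597 and 0.0543). Of 15 further settings in all, Ssr4 passed in 7 and Ssr1 in 6.

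**Figure D3:**
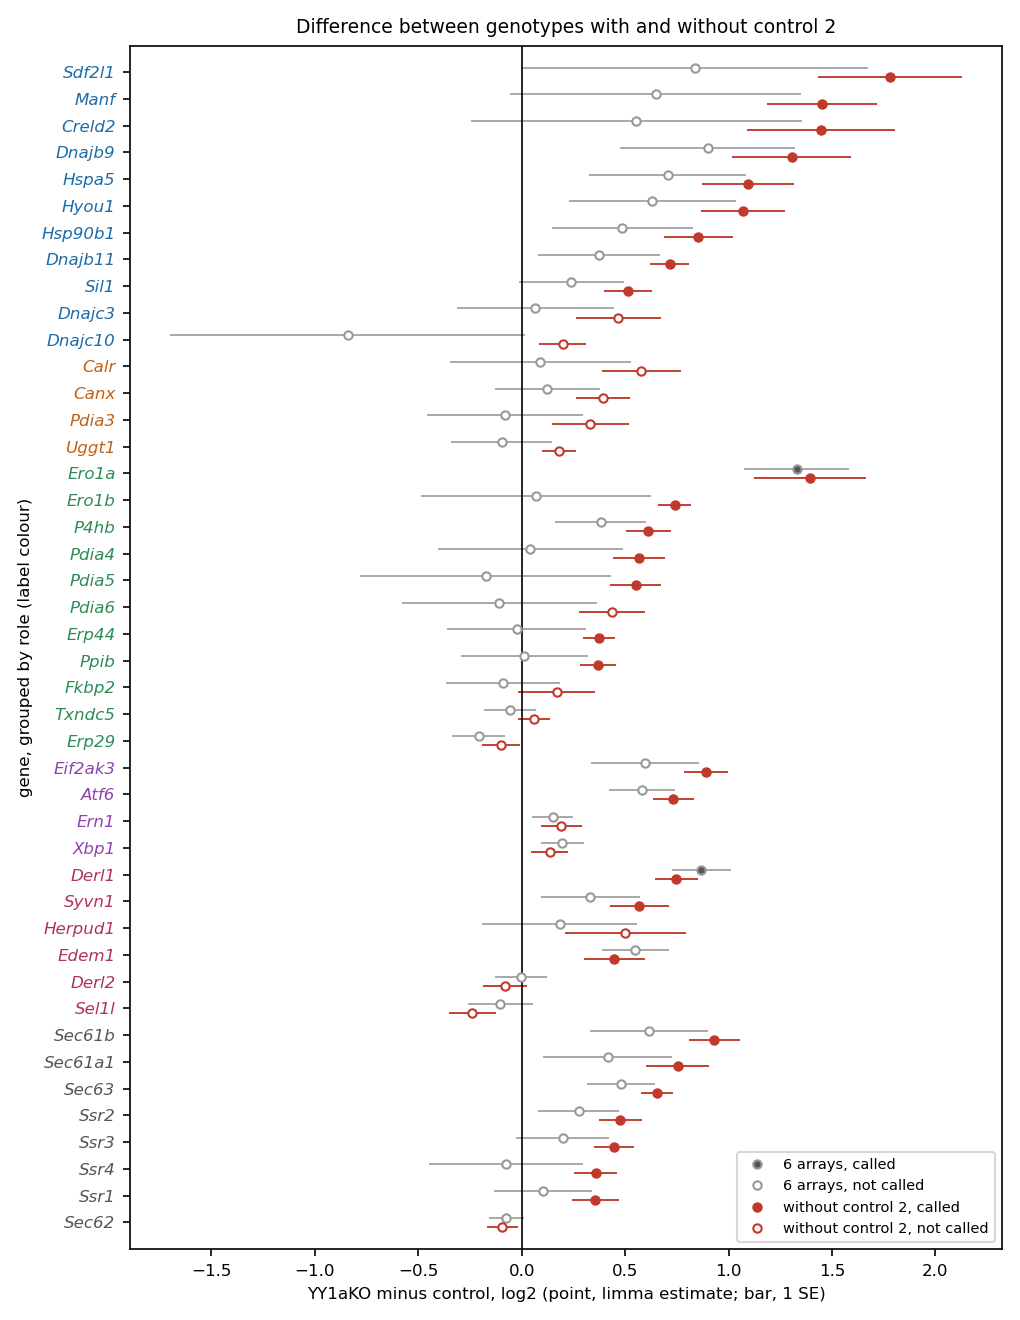
Difference between genotypes (horizontal axis, YY1aKO minus control, log2; bars, 1 SE) of each of the 44 genes with all 6 arrays in grey and without control 2 in red, filled where the adjusted p was under 0.05. With 6 arrays the points for Ero1a and Derl1 are filled, and without control 2 the points of 28 members are filled, all to the right of 0.

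Of the 44 members found, 27 had several probe sets. Among 38 further probe sets above the filter level, 34 had the same sign as the one used without control 2, and 33 with 6 arrays. For the members that rose without control 2, 20 further probe sets were above this level and 20 were higher in YY1aKO. Further settings without control 2 numbered 15 for most members and 14 for Eif2ak3, Ero1b, Hyou1, Sel1l and Uggt1. In every one in which they were tested, 14 members rose: Atf6, Derl1, Dnajb11, Eif2ak3, Ero1a, Ero1b, Hsp90b1, Hyou1, Manf, P4hb, Sdf2l1, Sec61a1, Sec61b and Sec63.

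The promoters of 36 members were matched in RefSeq (GRCm38.p6) as windows of 250 bases before to 50 after the start. The ER stress response element was found, on either strand, in 9 of them (25.0%) and in 39 of 32851 promoters in all (0.119%). Members were counted as genes and the whole set as single promoters, so such shares are not like for like. Counted as genes, 14 of the 6075 tested genes with a matched promoter held it, members included. The holders were Hspa5, Hsp90b1, Creld2, Dnajc3, Calr, Canx, Pdia6, Ero1b and Syvn1. The compact second form, ATTGG and CCACG separated by 1 base, was found in 2 members, Herpud1 and Dnajb11, and in 0.0365% of all promoters. The list of members is made of genes known for this response, so the share does not bear on the genotype comparison. Elements before the start are shown for 4 further members that rose without control 2, beside Calr and Herpud1, which did not pass. That of Dnajb11 lies past the start, at positions 8 to 18, and is not shown. Each lies with 20 bases of flank in the gene's own direction, with its outer letters in capitals. CGTGG before ATTGG is the element read on the opposite strand.
Hsp90b1, first element, chr10:86705618-86705676, minus strand, positions -212 to -194: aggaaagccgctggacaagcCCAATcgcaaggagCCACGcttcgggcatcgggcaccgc
Hsp90b1, second element, chr10:86705513-86705571, minus strand, positions -107 to -89: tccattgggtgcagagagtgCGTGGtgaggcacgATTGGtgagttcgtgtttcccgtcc
Creld2, chr15:88819500-88819558, plus strand, positions -126 to -108: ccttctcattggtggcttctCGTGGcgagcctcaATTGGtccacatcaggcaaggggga
Ero1b, chr13:12565662-12565720, plus strand, positions -201 to -183: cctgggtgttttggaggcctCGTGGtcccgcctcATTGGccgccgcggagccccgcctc
Syvn1, chr19:6046512-6046570, plus strand, positions -44 to -26: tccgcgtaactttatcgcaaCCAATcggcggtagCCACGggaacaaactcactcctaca
Calr, chr8:84847055-84847113, minus strand, positions -162 to -144: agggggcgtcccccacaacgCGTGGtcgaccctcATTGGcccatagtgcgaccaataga
Herpud1, second form, chr8:94386357-94386407, plus strand, positions -52 to -42: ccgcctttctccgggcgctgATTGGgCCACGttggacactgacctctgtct

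The differences of the members with an element lay within the range of those without one, and no test was made between them. Of the 11 with either form, 6 rose without control 2, with a median difference of 0.58 and a range of 0.39 to 1.45. Of the 24 tested members whose promoter held neither, 15 rose, with a median of 0.37 and a range of -0.24 to 1.78. The median excess of control 2 was 1.16 for the former and 0.80 for the latter. Sdf2l1, with the largest difference, held neither form in this window, which says only that these letters are not there. The letters TGACGTGG, a site of XBP1 and ATF6, were found in the window of 1 member, Txndc5. They were in 0.676% of all single promoters and, counted as genes, in 69 of the 6075 tested genes with a promoter. A core of the YY1 site, GCCAT and TT separated by 1 base, was found in Creld2, Ssr3 and Ssr4 (8.33% of the 36 members). This core was in 6.05% of all single promoters and, counted as genes, in 669 of the 6075. No promoter was matched for Sec61a1, Erp29, Atf6, Ssr2, Hyou1, Derl1, Manf and Sil1.

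The neighbouring steps of the secretory pathway were read from 7 further lists of 94 tested genes. Without control 2, 43 rose (45.7%, beside the 25.5% of all tested genes) and 6 fell, with a median difference of 0.36. With 6 arrays 11 rose (11.7%, beside 12.9% of all tested genes) and 2 fell (beside 7.80%), with a median of 0.17. Of the 12 genes of the signal recognition particle and signal peptidase, which deliver and trim new proteins, 9 rose (75.0%) and 0 fell without control 2. The smallest p-values were those of Srp9 (0.97 ± 0.08, adjusted p = 0.00118), Srp19 (0.99 ± 0.09, 0.00150), Sec11c (0.70 ± 0.08, 0.00220) and Srprb (0.89 ± 0.12, 0.00342). With 6 arrays Srp19 and Srprb also rose, by 0.82 and 0.71 (adjusted p = 0.0270 and 0.0486), while Srp9 differed by 0.72 and Sec11c by -0.11 without passing. Control 2 read 4592 for Sec11c, against 822 and 886 in the other controls.

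N-glycosylation, the attachment and trimming of sugars in the compartment, gave 5 higher and 1 lower of 14 without control 2. The share that rose was 35.7%, beside 25.5% of all tested genes. Krtcap2, a subunit of the oligosaccharyltransferase, rose by 1.07 ± 0.14 (adjusted p = 0.00303), and the glucosidase subunit Ganab changed by -0.35 ± 0.08 (adjusted p = 0.0169). Dad1 and Ddost, further subunits of the transferase, rose by 0.36 and 0.37. With 6 arrays none of these 4 passed, with differences of 0.80 for Krtcap2, -0.54 for Ganab, 0.17 for Dad1 and -0.01 for Ddost. The COPII coat and its cargo receptors, which carry proteins out towards the Golgi, had 9 higher (47.4%) and 1 lower of 19. The coat genes Sec13 and Sec31a rose by 0.83 ± 0.09 (adjusted p = 0.00201) and 0.61 ± 0.08 (0.00260), and the cargo receptor Tmed3 by 1.05 ± 0.09 (0.00123). Sec16b, a scaffold of the exit sites, read 292, 163 and 209 in the controls and 87.5, 84.0 and 119 in YY1aKO and changed by -1.37 ± 0.21 (adjusted p = 0.00452). With 6 arrays Sec13 and Sec16b passed too (0.69 and -1.17), while Sec31a and Tmed3 did not (0.37 and 0.52). In the list of the COPI coat and KDEL receptors, which return escaped proteins, 7 of 15 rose (46.7%) and 0 fell. These included Copb2, Copb1, Arf4 and Copg1, with differences of 0.64, 0.68, 0.69 and 0.43, against 0.49, 0.48, 0.61 and 0.41 with 6 arrays, where Arf4 and Copg1 passed.

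Further degradation factors gave 7 higher and 1 lower of 14 without control 2. Nploc4 and Ufd1, which help the ATPase p97 extract proteins, rose by 0.83 ± 0.12 (adjusted p = 0.00423) and 0.62 ± 0.12 (0.0105), and the lectin-like Edem2 by 0.44. With 6 arrays 2 of the 14 were higher (14.3%) and 1 lower, beside 12.9% and 7.80% of all tested genes. The 2 were Nploc4 and Ufd1 (0.76 and 0.84), while Edem2 did not pass (0.28). Os9, a lectin of the Hrd1 complex, changed the other way, by -0.83 ± 0.10 (0.00272), and also passed with 6 arrays (-0.91, adjusted p = 0.0103). Of 9 genes downstream of PERK, 3 rose (33.3%, beside 25.5% of all tested genes) and 0 fell without control 2. The stress-induced pseudokinase Trib3 read 124, 90.0 and 108 in the controls and 1248, 421 and 1354 in YY1aKO. The groups were far apart, with YY1aKO 2 lowest of its group as for the chaperones. Trib3 rose by 2.95 ± 0.51 without control 2 (adjusted p = 0.00678) and by 3.07 with it (0.0121). The transcription factors Atf3 and Atf4 rose by 1.33 ± 0.16 (0.00256) and 0.67 ± 0.17 (0.0246), of which Atf3 passed with 6 arrays (1.41, 0.00811) and Atf4 did not (0.51, 0.137). In this list control 2 lay below both other controls for 5 of 9 genes, with a median excess of -0.13.

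Collagen folding, the remaining list, showed no common direction, with 3 higher (27.3%) and 3 lower of 11 and a median of 0.05 without control 2. Of all tested genes, 25.5% rose and 19.6% fell there. The prolyl isomerases Fkbp7 and Fkbp9 changed by -0.61 ± 0.07 (adjusted p = 0.00254) and -0.58 ± 0.11 (0.00806), while their relative Fkbp11 rose by 0.80 ± 0.12 (0.00397). P4ha2, a catalytic subunit of collagen prolyl hydroxylase, rose by 0.55 ± 0.10 (0.00961). With 6 arrays none of the 4 passed, and Fkbp11 (-0.42, 0.799) and P4ha2 (-0.44, 0.734) had the opposite sign, beside -0.35 for Fkbp7 and -0.48 for Fkbp9. Control 2 lay below the mean of the other controls for the median gene of this list (-0.81), but read 889 for Fkbp11 against 69.2 and 70.2 in the others, and 2739 for P4ha2 against 320.0 and 386. The intensity filter of 114 used the mean over all 6 arrays. Without control 2 the mean level of Fkbp11 lay below it, so Fkbp11 was tested only because control 2 read high.

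**Figure D4:**
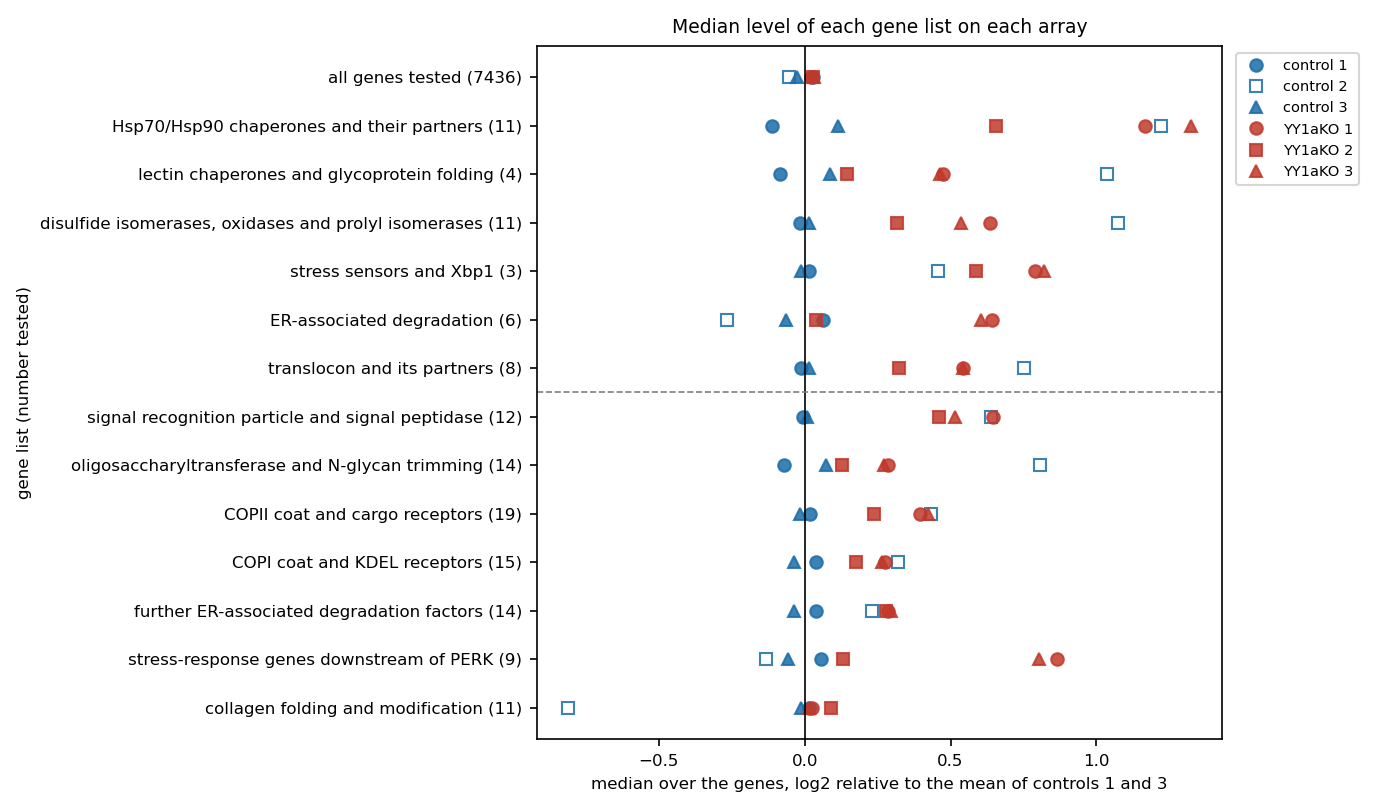
Median log2 level of each list of genes (rows, with the number tested) on each of the 6 arrays relative to the mean of controls 1 and 3 (horizontal axis), with the roles of the members above the dashed line and the further lists below it. For all 7436 tested genes the 6 arrays lie between -0.05 and 0.03, while control 2 (open squares) reaches 1.22 for the partners of BiP and -0.81 for collagen folding.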

How the data were processed

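The values the authors deposited are linear intensities of probe sets. Per the submitters' processing notes they were made with RMA, of no stated version, which makes the distributions of arrays alike and would remove a shift common to most genes. The array medians of the deposited intensities were 135 to 141. Of 22690 probe sets, 20380 had a single gene symbol in the platform annotation, and the brightest probe set stood for each of 12393 genes. The log2 values of the 60% of genes with the highest mean were fitted with limma 3.58.1 in R 4.3.3 (lmFit and eBayes, two-sided, Benjamini-Hochberg over all 7436 tested genes, threshold 0.05), on 3 control and 3 YY1aKO arrays and again without control 2. Precision is limited by the number of arrays.

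Members, gene lists and the comparison without control 2 were chosen with earlier results of these data known. Array values are printed for members that passed in either comparison, at most 6 per role by size of difference, and for the sensors and Xbp1. Calr, Canx, Dnajc10 and single values of Herpud1 are exceptions named after their values were seen. From each further list up to 4 genes with the smallest p-values without control 2 are named. The adjusted p of Ern1 comes from fitting all genes. Motifs were counted on both strands. Protein sequences were not analysed here. Alternatives were the mean of all probe sets, no _s_at or _x_at probe sets, no filter or the brightest 40%, a replicate block, array weights, a robust prior with an intensity trend, an offset of 16, equal medians, repeated quantile normalization, and each array left out. The scripts were tested on simulated data.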

Additional observations from a re-analysis of the deposited data

How the results depend on the processing

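With 6 arrays, 2 members passed. The count was 4 with the same median on every array, 11 with array weights (whose estimation stopped with a convergence warning) and 0 with the replicate block, and it ran from 0 to 28 when 1 array was left out. It was 0 without control 3 or any single YY1aKO array and 28 without control 2. The median difference stayed between 0.07 and 0.52. Without control 2, 28 members passed, and 25 to 31 in the settings that kept all 5 arrays, with 27 under the replicate block (23 shared). Leaving out a further array gave 18, without control 1, to 32, without YY1aKO 2. The median then lay between 0.45 and 0.65. Without control 2, 9 members turned from negative to positive, of which Pdia5, Erp44 and Ssr4 passed and the other 6 did not. Over single arrays left out, Pdia5 ran from -0.54 to 0.55, Erp44 from -0.24 to 0.37 and Ssr4 from -0.33 to 0.36. Yy1 passed as lower in each setting, at a log2 difference of -1.17 when its probe sets were averaged (6 arrays). Over all tested genes the replicate block gave 22 higher and 32 lower with 6 arrays, and 980 and 809 without control 2. Deviations of same-numbered samples from their group means had correlations of -0.14 to -0.12, against 0.03 to 0.12 for different numbers. Deviations within a group depend on each other and control 2 stood apart, so these values cannot decide whether the numbers pair the samples. The causes of these changes were not tested. Ern1, below the intensity filter, was tested only with no filter.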

Other observations

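Across all 6075 tested genes with a matched RefSeq promoter, 25.9% were higher and 19.3% lower in YY1aKO without control 2. Of the 69 whose window held TGACGTGG on either strand, 31 were higher (44.9%) and 5 lower, with a median difference of 0.26, against 0.03 for all. Of the 669 whose window held the YY1 core, 139 rose (20.8%) and 182 fell (27.2%), and the median difference was -0.04. The ER stress response element was held by 14, of which 6 were higher and 1 was lower (median 0.52). The 14 were 9 members together with Acacb, Adcy3, Alg12, Derl3 and Pan2, so their count and median mostly restate the members' values. These counts are descriptions, and no test was made.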
